A study of Macaca fascicularis with 20 samples.

Results

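A set of 9 genes that mark the B cell lineage were followed across sorted spleen cells of cynomolgus macaques (Macaca fascicularis): the nuclear factors PAX5, POU2AF1 and LMO2, the surface or receptor-like proteins CD22, CR2, FCRL1 and FCRLA, and the signalling adaptors STAP1 and SWAP70. They were chosen by name as lineage factors, receptors and adaptors, with earlier results of these data known. A probe was assigned to a gene when its transcript accession, without the version, belonged to that gene in RefSeq. All 9 were matched, through 13 probes, among 12530 genes with a matched probe. All 9 passed the filter on dim probes and were among the 12372 genes tested.

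PAX5 is the transcription factor that commits lymphoid precursors to the B lineage and keeps them there. Mature follicular and marginal zone B cells of the spleen carry receptors that tune signalling through the antigen receptor, among them the inhibitory lectin CD22 and the complement receptor CD21, the product of CR2. Natural killer (NK) cells are lymphocytes of a separate branch and kill target cells through granules of perforin and granzymes.

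Frozen spleen cells were thawed, stained and sorted without stimulation, and their RNA was amplified and hybridised to 20 one-colour arrays. B cells (2 arrays) were NKG2A-, CD8a-, HLA-DR+ and CD20+. The 4 NK subsets were NKG2A+ and CD8a+ cells from live CD45+ cells without CD3, CD14, CD20 or HLA-DR. They were CD27lo CD11blo (double-low, 4 arrays), CD27+ CD11blo (CD27 single-positive, 4 arrays), CD27+ CD11b+ (double-positive, 5 arrays) and CD27lo CD11b+ (CD11b single-positive, 5 arrays). No treatment or genotype separated the groups. Both B cell samples were from females labelled Singapore, aged 5 and 18 years. Of the NK arrays, replicates 1 were from males labelled Cambodia, aged 4 years, and replicates 2 and 3 from males labelled Vietnam, with no age given for replicates 2 and 9 to 12 years for replicates 3. Replicate 4 of the double-low and CD27 single-positive cells and replicate 5 of both CD11b+ subsets were from females labelled Singapore, aged 18 years. Replicate 4 of both CD11b+ subsets was from males with that label, aged 5 years. The gene of the B cell gate, MS4A1, which encodes CD20, had no matched probe, so the gate was not checked through it. The labels call the NK replicates biological, but do not tie arrays to named animals, so p-values measure the spread between these samples.

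Levels are given as log2 of the processed signal minus the 75th percentile of the array, so that 0 is that percentile. The percentile itself lay between 180 and 1901 intensity units, and double-positive replicate 4 (180) and double-low replicate 4 (201) were the dimmest arrays. Across all 12372 genes the median difference of B cells from the double-low, CD27 single-positive, double-positive and CD11b single-positive cells was -0.62, -0.28, -0.17 and -0.42 on the log2 scale. Arrays stood on 3 slides scanned on 2 days, and both B cell arrays were on the second slide.

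All 9 genes were higher on both B cell arrays than on every one of the 18 NK arrays, a separation found for 393 of the 12372 genes (3.18%). Both B cell arrays lay above every double-low, CD27 single-positive, double-positive and CD11b single-positive array for 19.2%, 10.6%, 7.64% and 12.1% of all genes when each subset is taken alone. In the limma fit, with Benjamini-Hochberg adjustment over all genes, 9 of the 9 passed an adjusted p of 0.05 against double-low cells, where 1.58% of all genes were called higher in B cells. Against CD27 single-positive cells 8 passed (background 0.76%). Against double-positive cells 9 passed (background 0.954%), and against CD11b single-positive cells 9 passed (background 0.857%). In all 4 comparisons 8 genes passed, as did 0.533% of all genes, and SWAP70 missed the threshold against CD27 single-positive cells. The median difference of the 9 genes was 6.20, 6.47, 6.99 and 5.81 against the double-low, CD27 single-positive, double-positive and CD11b single-positive cells, all on the log2 scale. The 4 comparisons share the B cell arrays and are not independent of each other. Because the members were chosen with earlier results of these data known, their counts are descriptions and no independent test of the list. In bulk RNA, fewer cells of a type and less RNA per cell cannot be told apart.

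**Figure D1:**
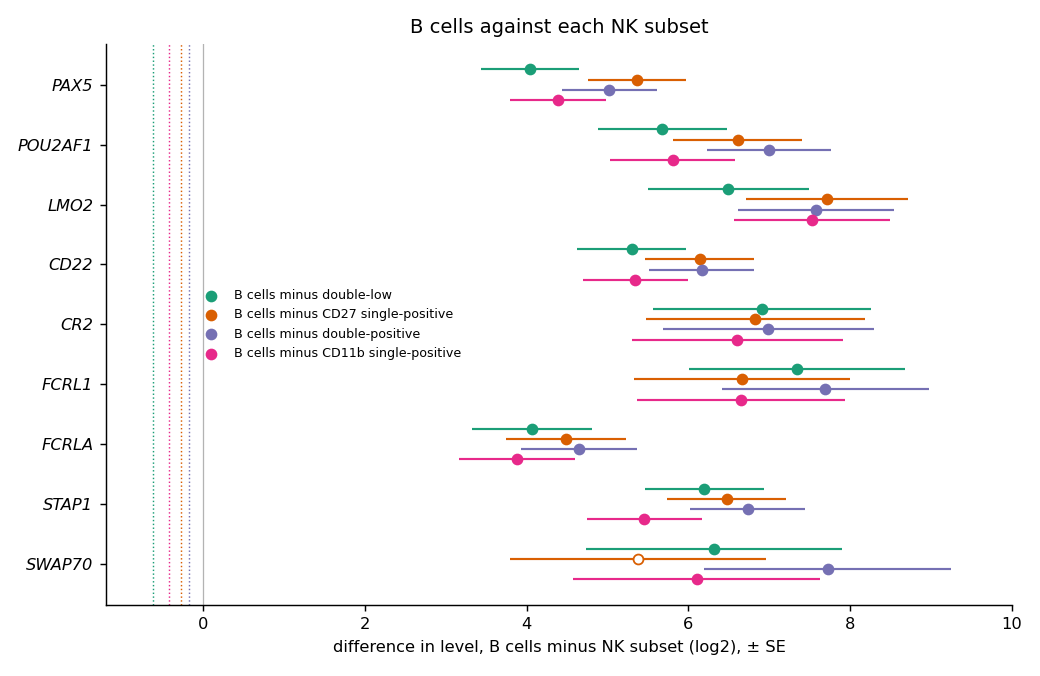
Difference in level between B cells (2 arrays) and each NK subset (4 or 5 arrays) for the 9 genes, on a log2 axis, with bars of 1 SE from the limma fit; filled points passed an adjusted p of 0.05, the open point did not, and dotted lines mark the median of all tested genes in the same comparison. All 36 differences lie between 3.89 and 7.72, to the right of every dotted line, and SWAP70 has the widest bars.

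Among the nuclear factors, PAX5 stood at 0.98 and 0.76 on the B cell arrays. Its levels were -3.32, -2.98, -3.52 and -2.85 in double-low cells and -4.90, -4.20, -3.93 and -4.94 in CD27 single-positive cells. They were -5.53, -4.71, -3.14, -3.00 and -4.37 in double-positive cells and -3.21, -3.56, -3.63, -3.43 and -3.74 in CD11b single-positive cells. The B cell arrays were thus apart from every NK array, by 3.62 between the lower B cell array and the highest NK array. Among the NK subsets, all 4 double-low and all 5 CD11b single-positive arrays lay above all 4 CD27 single-positive arrays, and the other pairs overlapped. How many of all genes separate NK subsets in this way was not counted. PAX5 did not pass limma's moderated F test between the NK subsets (adjusted p = 0.559). PAX5 was 16.4-fold higher in B cells than in double-low cells (log2 difference 4.04 ± 0.61, SE; limma adjusted p = 0.00113) and 41.1-fold higher than in CD27 single-positive cells (5.36 ± 0.61; limma adjusted p = 3.04e-05). The folds over double-positive and CD11b single-positive cells were 32.5 and 20.9.

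POU2AF1 encodes the coactivator OCA-B, which joins octamer-binding factors at immunoglobulin promoters. It stood at 2.54 and 2.01 in B cells. In double-low cells its 4 values were -2.75, -4.20, -4.10 and -2.54, and in CD27 single-positive cells -2.84, -4.91, -4.60 and -4.98. In double-positive cells the 5 values were -6.08, -5.54, -3.56, -3.34 and -5.06, and in CD11b single-positive cells -3.00, -4.32, -3.68, -2.88 and -3.76. The 4 NK subsets overlapped, and none reached within 4.55 of the lower B cell array. The difference was smallest against double-low cells, at 5.68 ± 0.80 (SE; limma adjusted p = 0.000704), and largest against double-positive cells, at 6.99 ± 0.77 (SE; limma adjusted p = 2.02e-05). These are folds of 51.2 and 128.

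LMO2, a LIM-domain adaptor of haematopoietic transcription complexes that germinal centre B cells also express, was at 2.28 and 2.06 in B cells. It was well above background on 7 of 18 NK arrays, so most of its NK values are near the limit of the array. The highest NK values were -2.21 in double-low replicate 1 and -3.75 in double-positive replicate 1. The remaining double-low arrays lay between -5.57 and -4.14, and the CD27 single-positive, double-positive and CD11b single-positive arrays reached down to -6.16, -7.93 and -6.41. The fitted difference from B cells was 6.49 ± 1.0 against double-low cells (SE; limma adjusted p = 0.00141), where 2 of 4 arrays were well above background. It was between 7.53 and 7.71 against the CD27 single-positive (1 of 4 arrays), double-positive (2 of 5) and CD11b single-positive cells (2 of 5). A second estimate raised every NK value to at least the lowest signal among probes well above background on its array. By it LMO2 was 70.3-fold higher in B cells than in double-low cells, and 158-fold, 108-fold and 137-fold higher than in the other subsets in that order. These folds are point estimates that allow for dim signal and not for the spread between arrays.

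Of the receptors, CD22 carries inhibitory motifs that dampen signalling through the B cell receptor. Its B cell levels were 3.77 and 3.51, and it was well above background on all 18 NK arrays. Double-low cells gave 0.12, -1.91, -3.07 and -1.77, and CD27 single-positive cells -2.60, -1.94, -2.64 and -2.84. Double-positive cells gave -2.29, -2.74, -2.21, -2.78 and -2.59, and CD11b single-positive cells -1.06, -2.30, -2.25, -0.59 and -2.32. Most NK arrays lay close together, with replicate 1 of the double-low cells and replicates 1 and 4 of the CD11b single-positive cells above the others. CD22 was between 39.3-fold (double-low; log2 difference 5.30 ± 0.67, SE; limma adjusted p = 0.000298) and 71.6-fold (double-positive; 6.16 ± 0.65; limma adjusted p = 1.4e-05) higher in B cells.

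CR2 encodes CD21, which binds complement fragments on antigen. It stood at 3.32 and 3.04 in B cells. The NK values spread widely inside 3 of the 4 subsets: from -6.27 to -1.33 in double-low cells, from -5.84 to -1.10 in double-positive cells and from -6.26 to -0.73 in CD11b single-positive cells, but from -4.00 to -2.92 in CD27 single-positive cells. The 3 lowest of these values were not well above background. The differences from B cells lay between 6.60 and 6.99, with SEs of 1.30 to 1.35 and limma adjusted p from 0.0048 to 0.00934.

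FCRL1 and FCRLA belong to the Fc receptor-like family. FCRL1 is a surface protein that promotes B cell activation, and FCRLA is a soluble relative kept inside B cells. FCRL1 was at 1.05 and 1.1 in B cells and was well above background on 7 of 18 NK arrays, namely 1 double-low, 3 CD27 single-positive, 1 double-positive and 2 CD11b single-positive arrays. Its NK values ran from -7.93 to -2.84, and the 2 highest were CD11b single-positive replicates 4 (-2.84) and 1 (-2.85). The fitted difference from B cells was 7.34 ± 1.33 against double-low cells (SE; limma adjusted p = 0.00618) and 7.69 ± 1.28 against double-positive cells (SE; limma adjusted p = 0.00174), and rests mostly on NK values that were not well above background. With NK values raised as for LMO2, FCRL1 was 59.8-fold, 67.7-fold, 62.5-fold and 44.2-fold higher in B cells than in the double-low, CD27 single-positive, double-positive and CD11b single-positive cells. These too are point estimates without an allowance for the spread between arrays.

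FCRLA was the member whose B cell arrays differed most, at 2.35 in replicate 1 and 3.95 in replicate 2. It was well above background on all 18 NK arrays, where it ran from -2.90 to 0.58. The highest NK values were 0.58 in CD11b single-positive replicate 5 and 0.23 in double-low replicate 4, and the gap to the lower B cell array, 1.77, was the narrowest of the 9 genes. FCRLA was 16.8-fold, 22.4-fold, 25.0-fold and 14.8-fold higher in B cells than in the double-low, CD27 single-positive, double-positive and CD11b single-positive cells (limma adjusted p = 0.00618, 0.00175, 0.000718 and 0.00502).

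The adaptor STAP1 is a substrate of the kinase TEC in B cell receptor signalling. It stood at 1.81 and 1.94 in B cells. Double-low cells gave -4.74, -3.64, -4.32 and -4.58, and CD27 single-positive cells -5.18, -5.67, -3.93 and -3.62. Double-positive cells gave -6.60, -4.35, -4.51, -4.35 and -4.48, and CD11b single-positive cells -3.95, -3.73, -3.78, -2.17 and -4.27. All 5 CD11b single-positive arrays lay above all 5 double-positive arrays. In these subsets 1 double-positive array was low and 1 CD11b single-positive array high, and the remaining NK arrays lay between -5.67 and -3.62. How many of all genes separate these subsets was not counted. STAP1 did not pass limma's moderated F test between the NK subsets (adjusted p = 0.581). The difference from B cells ran from 5.45 ± 0.71 (CD11b single-positive, SE; limma adjusted p = 0.000207) to 6.73 ± 0.71 (double-positive, SE; limma adjusted p = 1.4e-05).

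SWAP70 is a guanine nucleotide exchange factor of the Rac GTPases, first described in switching B cells and also present in other blood cells. Its B cell levels were 3.27 and 3.83. Double-low cells gave -0.14, -1.71, -3.05 and -6.17, and CD27 single-positive cells -2.49, -3.99, -1.95 and 1.12. Double-positive cells gave -2.79, -2.42, -6.36, -5.84 and -3.44, and CD11b single-positive cells -2.04, -4.26, -1.80, -0.02 and -4.65. The spread inside each NK subset was wide (SD 1.81 to 2.56), and CD27 single-positive replicate 4 came closest to the B cells, 2.15 below the lower of them. The values -6.17 in double-low and -6.36 and -5.84 in double-positive cells were not well above background and enter that spread. The difference was 7.72 ± 1.53 against double-positive cells (SE; limma adjusted p = 0.00805), 6.31 ± 1.58 against double-low cells (0.0275) and 6.10 ± 1.53 against CD11b single-positive cells (0.0428). Against CD27 single-positive cells it was 5.38 ± 1.58 with a 95% interval from 2.07 to 8.68, and did not pass (limma adjusted p = 0.131). With NK values raised to the array's limit as for LMO2, the differences from double-positive and double-low cells were 7.11 and 5.76.

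**Figure D2:**
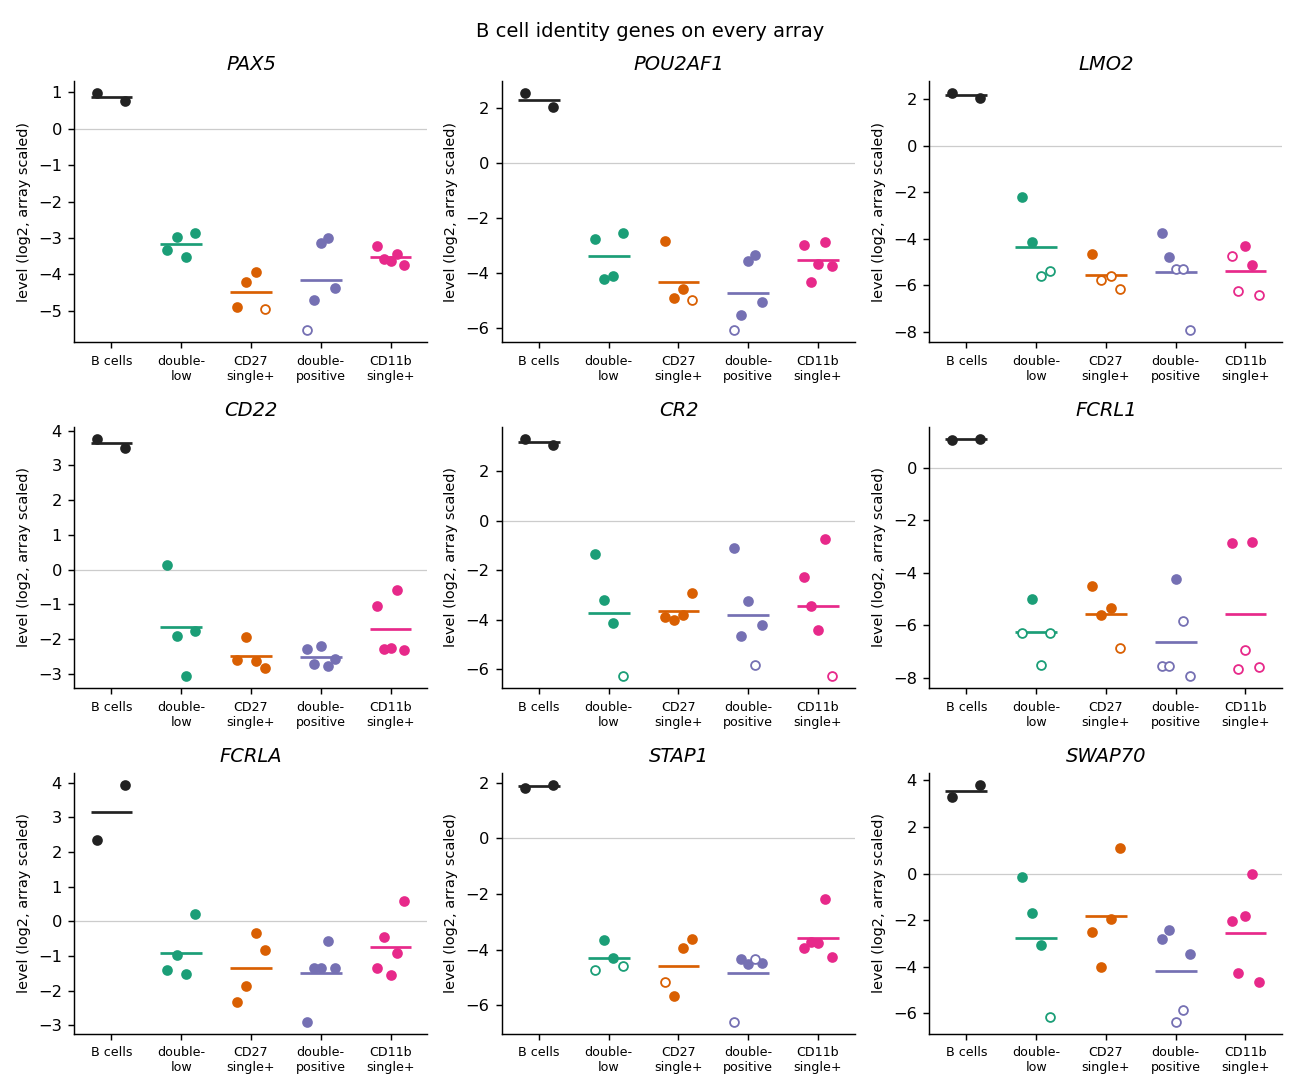
Level of each of the 9 genes on all 20 arrays (log2 of the processed signal minus the array's 75th percentile, marked by the grey line at 0), by group and in the order of the replicate number from left to right; filled points were well above background, open points were not, and horizontal bars are group means. The 2 B cell points lie above all 18 NK points in every panel. The NK subsets overlap, except CD27 single-positive with double-low and with CD11b single-positive cells for PAX5, and double-positive with CD11b single-positive cells for STAP1. The share of all genes that separate NK subsets in this way was not counted.

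Of the members, 4 had a second probe. Over the 20 arrays the second probe followed the first with Pearson r = 0.991 for CR2, 0.942 for FCRLA, 0.933 for FCRL1 and 0.734 for SWAP70, values that rest largely on the distance between B cells and NK cells. The second SWAP70 probe gave smaller differences, of 4.10, 4.44, 6.28 and 4.23 against the double-low, CD27 single-positive, double-positive and CD11b single-positive cells, and it too missed the threshold against CD27 single-positive cells (limma adjusted p = 0.0618 over all probes).

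These measured limits bear on these calls. On the second slide alone, which held both B cell arrays, all 36 differences kept their sign, from 3.73 to 9.91. There 8 members passed against double-low, 6 against CD27 single-positive and none against double-positive or CD11b single-positive cells, each of which had 1 array on that slide and is assumed to vary like the other groups there. With 1 B cell array left out, the spread comes from the NK groups alone and the lone B cell array is assumed to vary like them. CR2 and FCRL1 passed in none of the 4 comparisons (limma adjusted p from 0.0576 to 0.188), nor did SWAP70 (0.124 to 0.779), and FCRLA passed in none without replicate 2 (0.0894 to 0.261). With the slide as a block SWAP70 did not pass against CD11b single-positive cells (difference 6.51; limma adjusted p = 0.0568). That call was also lost on leaving out replicate 1, 2, 3 or 5 of the CD11b single-positive cells, 2 or 3 of the double-low cells, or 1 or 3 of the CD27 single-positive cells (0.0523 to 0.0843). The SWAP70 call against double-low cells was lost without double-low replicate 4 (difference 5.18; limma adjusted p = 0.0572). Normexp background correction of the spot medians, which added an offset of 50 intensity units to every value, lowered several differences. FCRL1 against CD11b single-positive cells fell from 6.65 to 4.28 and LMO2 against double-low cells from 6.49 to 4.41. All 36 differences then lay between 3.32 and 6.12. All passed the threshold, SWAP70 against CD27 single-positive cells included (difference 4.67, limma adjusted p = 0.00488). The part of the offset in these changes was not tested.

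Origin, sex and age differed between most B cell and NK arrays. B cell replicate 2 shared its label of origin, sex and age with 1 array of each NK subset, and in those 36 pairs of single arrays its level was higher every time, by 2.71 (SWAP70, CD27 single-positive replicate 4) to 9.99 on the log2 scale. With that label as a block, B cell replicate 1, whose label no other array carries, does not inform the comparisons. The differences then rest on B cell replicate 2 alone. All were positive, from 3.95 (against CD11b single-positive cells) to 9.09 (against double-positive cells). In that block replicates 3, whose labelled ages run from 9 to 12 years over the 4 subsets, were taken as 1 label; whether they are 1 animal is not known.

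The second question was how much of these transcripts remained in each NK subset. Being well above background was common, at 67.9% to 96.0% of all probes on an NK array. Members were so in 125 of 162 combinations of gene and NK array. The count was 18 of 18 arrays for CD22 and FCRLA, 16 for PAX5 and POU2AF1, 15 for CR2 and SWAP70, 13 for STAP1 and 7 for FCRL1 and LMO2. Expressed as a percentage of the mean B cell level of the same probe, the median of the 9 genes on an array ran from 1.03% to 4.38% in double-low cells and from 0.692% to 1.52% in CD27 single-positive cells. It ran from 0.788% to 1.73% in double-positive cells and from 1.03% to 5.99% in CD11b single-positive cells. The order of the subset medians was CD11b single-positive (1.69%), double-low (1.64%), CD27 single-positive (1.37%) and double-positive (1.2%), and all 4 ranges overlap.

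**Figure D3:**
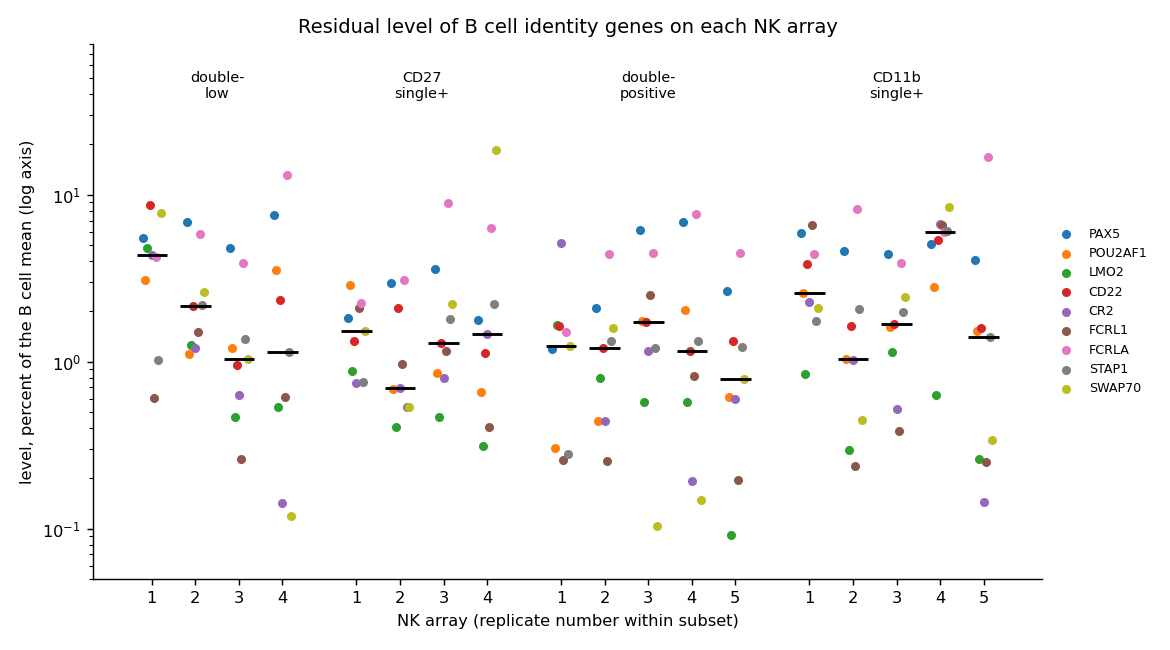
Level of the 9 genes on each of the 18 NK arrays as a percentage of the gene's mean level in B cells (log axis), by subset and replicate number; coloured points are genes and black bars the median of the 9. Most bars lie between 0.692% and 2.58%, with double-low replicate 1 (4.38%) and replicate 4 of the CD11b single-positive cells (5.99%) above them and SWAP70 on CD27 single-positive replicate 4 the highest point, at 18.5%.

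No member passed limma's moderated F test between the NK subsets over the 18 NK arrays, which took the arrays as unpaired. The adjusted p was lowest for PAX5 (0.559; unadjusted p = 0.0733) and highest for CR2 (0.991), and 0 of the 9 had an unadjusted p under 0.05. The test called 0 of 12176 genes (0%), while 1067 had an unadjusted p under 0.05. For PAX5, CD27 single-positive minus double-low cells gave -1.32, with a 95% interval from -2.42 to -0.22 that is not adjusted for the number of comparisons. Its highest value in double-low and in double-positive cells came from the 2 dimmest arrays, where the lowest measurable level is also higher (-3.95 and -3.52). For STAP1, CD11b single-positive minus double-positive cells gave 1.28 (95% interval 0.09 to 2.47), and the outer values of both subsets, -2.17 and -6.60, enter it. For SWAP70 the interval between double-positive and CD27 single-positive cells ran from -4.99 to 0.31, so that a large difference, higher in CD27 single-positive cells, could not be resolved at this number of arrays.

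Some single arrays were high for several of the 9 genes. How often each array ranks highest over all genes was not counted, so the counts that follow have no background. CD11b single-positive replicate 4 had the highest NK value for 3 members and the highest value of its own subset for 6 members. All 9 members were well above background on that array, as were 91.5% of all probes. There CD22, CR2, STAP1 and SWAP70 reached 5.34%, 6.65%, 6.06% and 8.43% of the B cell mean. Double-low replicate 1 was among the 3 highest NK arrays for 5 members and reached 8.71% for CD22 and 7.74% for SWAP70, but 1.02% for STAP1. CD27 single-positive replicate 4 was high for SWAP70 and not for CD22 (1.12%).

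Other transcripts with higher mean levels in B cells were unevenly present on the same arrays. JCHAIN, the joining chain of secreted IgM and IgA, was chosen here after its values were seen. It was highest on replicates 1, at 0.94, 0.23, 0.75 and -0.04 in the double-low, CD27 single-positive, double-positive and CD11b single-positive cells, against 3.03 and 2.06 in B cells. CD74, the invariant chain of MHC class II, was counted here among antigen presentation genes and not as a B lineage gene. It was at 3.48 on double-low replicate 1 and at 2.29 on CD11b single-positive replicate 4, each the highest of its subset. The B cell arrays gave 5.36 and 5.58. The part of JCHAIN and CD74 in the levels of the 9 genes was not tested.

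Genes that work beside the 9 members were counted from lists written with earlier results of these data known, in the order double-low, CD27 single-positive, double-positive and CD11b single-positive. As background for every list, 1.58%, 0.76%, 0.954% and 0.857% of all genes tested were called higher in B cells in that order. The shares called lower in B cells were 7.53%, 0.533%, 0.614% and 1.17%. Of 19 tested genes of the B cell receptor complex and its signalling, 5, 3, 4 and 4 were higher in B cells and none was lower, with median differences of 2.05, 1.30, 1.27 and 1.89. DAPP1, an adaptor downstream of PI3-kinase, and LY86, the partner of the receptor RP105, passed in all 4. LY86 differed by 3.26 ± 0.68, 4.31 ± 0.68, 4.27 ± 0.66 and 3.59 ± 0.66 (SE). DAPP1 differed by 4.42 ± 1.02 (SE) against double-low cells (limma adjusted p = 0.0215). No CD27 single-positive array held it well above background, and with those values raised as for LMO2 it was 34.2-fold higher in B cells.

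Of 14 other transcription factors of the lineage, 4, 4, 3 and 2 were higher in B cells and none lower, with medians of 1.38, 1.57, 1.92 and 1.80. BACH2, a repressor that holds back plasma cell differentiation, and BCL11A, a zinc finger factor needed for early B cells, passed in all 4. BCL11A differed by 4.07 ± 0.75, 5.95 ± 0.75, 6.04 ± 0.73 and 4.63 ± 0.73 (SE). BACH2 differed by 4.94 ± 0.90 (SE) from double-low cells (limma adjusted p = 0.00613). No CD11b single-positive array held it well above background, and with those values raised as for LMO2 it was 33.9-fold higher in B cells.

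Of 9 other surface and follicle genes, 4, 3, 5 and 4 were higher in B cells, with medians of 2.89, 2.70, 2.66 and 2.53. CXCR5, the receptor that draws B cells into follicles, differed by 3.07 to 3.45 and CD1C, a lipid-presenting molecule of marginal zone B cells and dendritic cells, by 4.20 to 5.28, and both passed in all 4. Of 5 antigen presentation genes CD74 and IFI30, a lysosomal thiol reductase, were higher in all 4 comparisons; B cells were gated on HLA-DR, so this list follows the sort in part. Of 6 plasma cell genes none passed, with medians of 0.66 to 1.46; JCHAIN differed by 5.06 to 5.95, its lowest limma adjusted p being 0.0734.

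Markers of the NK lineage moved the opposite way: of 10 tested, 8, 8, 8 and 9 were lower in B cells, as were 7.53%, 0.533%, 0.614% and 1.17% of all genes tested. KLRD1, which encodes CD94, the partner of the gated NKG2A, differed by -6.09, -7.06, -7.10 and -6.45, and the perforin gene PRF1 by -4.37, -5.42, -6.75 and -6.93. Of 3 T cell genes TRAT1 was lower in B cells in all 4 comparisons. None of 7 monocyte, 2 erythroid, 3 platelet or 2 follicular dendritic cell genes passed, and of 6 dendritic cell genes CD1C alone did. Of 7 stromal and endothelial genes 3 were lower in B cells than in double-low cells and 1 was higher than in double-positive cells. The summed monocyte markers lay between 1.79 and 2.56 in B cells and between 1.24 and 2.98 on NK arrays, in the log2 unit of the levels.

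**Figure D4:**
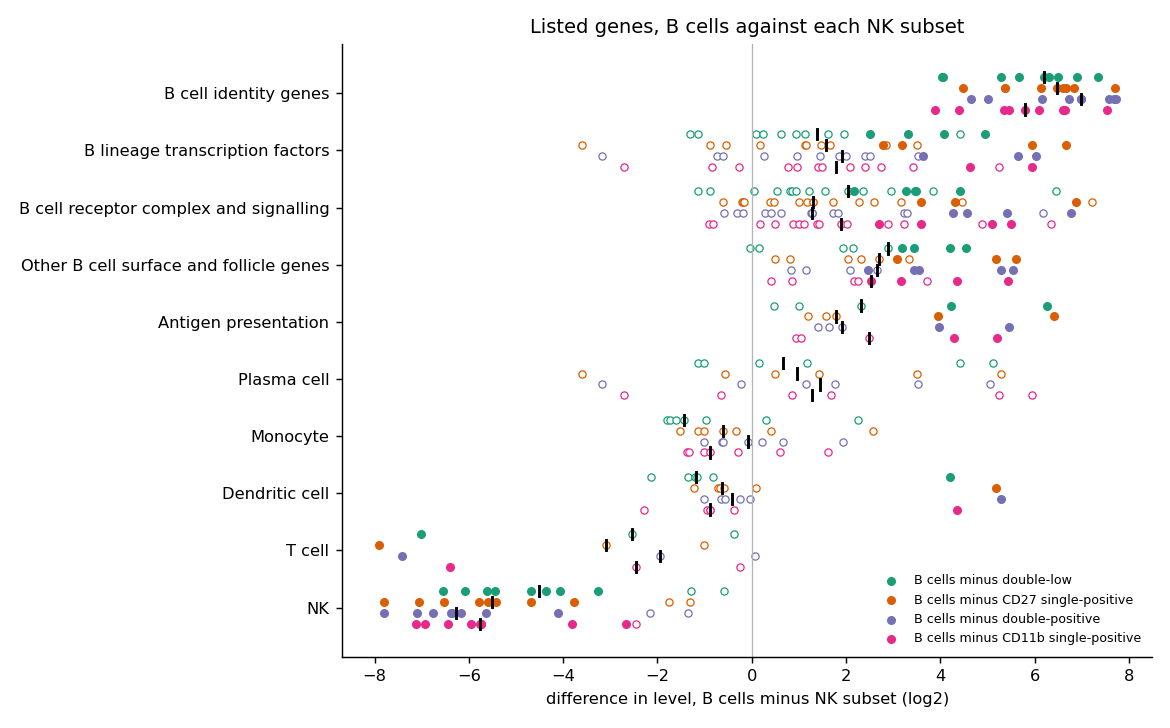
Difference in level between B cells and each NK subset for every tested gene of 10 lists (log2 axis), 1 row of points per subset; filled points passed an adjusted p of 0.05 in the limma fit and black ticks are medians. The 9 B cell identity genes lie between 3.89 and 7.72, and the NK markers lie between -7.81 and -0.58.

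Across the 20 arrays each member followed the mean of the other 8, after scaling each gene to mean 0 and SD 1, with Pearson r from 0.728 (SWAP70) to 0.960 (CD22). Outside the 9, the genes whose levels were most like their mean over the 20 arrays were RPRML (r = 0.938), BCL11A (0.927), SLC15A2 (0.924), WDFY4 (0.909) and SLC45A3 (0.907), out of 12372 genes compared. These correlations are descriptions: all of them share the arrays and rest on the distance between 2 B cell arrays and 18 NK arrays.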

How the data were processed

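RNA of 18 NK and 2 B cell samples was measured on one-colour Agilent arrays. Per the submitters' processing notes, Agilent Feature Extraction 10.7.1.1 and Partek were used; no further setting is stated there. The processed signal is, per the file headers, an intensity after background subtraction; medians of spot and background are uncorrected intensity. Values of the deposited matrix are log2 expression with a common median of 8.02 in each array; its correlation with the log2 processed signal was at least 0.994, and its exact normalization is not stated. Flags of the deposited files, which are no measurement, marked probes well above background; no spot was saturated.

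Of 58659 probes, 20417 matched 1 gene of the RefSeq table. Levels were log2 processed signal minus the array's 75th percentile. Testing required a probe to be well above background on 2 or more of 20 arrays (B cell comparison) or 4 of 18 (NK subsets), and the probe of highest mean stood for its gene. The models used limma (version 3.58.1, R 4.3.3) with lmFit and a robust, trended eBayes, with 5 group means for the B cell comparison and 4 for the NK subsets, and Benjamini-Hochberg adjustment at 0.05 over all genes. The functions were tested on simulated data. With 2 to 5 arrays per group, their number limits the precision. Folds with raised NK values set the B cell mean against, per array, the higher of the probe's signal and the lowest signal among probes well above background. They are point estimates without an allowance for the spread between arrays.

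The members and lists were chosen with earlier results of these data known. Outside the members, up to 4 genes per list were to be named, those of largest mean difference among those past the threshold in all 4 comparisons, else those of lowest mean p; fewer are printed where fewer matter, and some are not reported here, and JCHAIN on single arrays was chosen after its values were seen. Alternatives covered scaling, background, filter, probe choice, slide, label, replicate block, array weights and arrays left out. The planned normexp correction on spot means was run on spot medians instead, a choice made after seeing the files, which hold medians.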

Additional observations from a re-analysis of the deposited data

Results flagged for a closer look

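In 36 groups of 4 or 5 arrays (9 genes in 4 NK subsets), 2 values stood apart from the rest of their group by more than a common outlier limit (Dixon's) allows, and chance alone would set apart about 1 group in 20. STAP1 was at -6.60 in double-positive replicate 1, where the other 4 arrays lay between -4.51 and -4.35; it was not well above background there. STAP1 was at -2.17 in CD11b single-positive replicate 4, where the other 4 arrays lay between -4.27 and -3.73.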

How the results depend on the processing

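Under the alternatives run, all 1180 recomputed differences of the 9 genes kept their sign and 1081 passed the threshold; 68 calls were lost and 2 gained (SWAP70 against CD27 single-positive cells, with normexp and with array weights). Of the lost calls, 15 and 11 came without B cell replicates 2 and 1 and 21 on the second slide alone, where no gene at all passed against double-positive (0) or CD11b single-positive cells (0) and 0 members did. With each array left out in turn, 5 to 9 members passed against double-low, 5 to 8 against CD27 single-positive, 5 to 9 against double-positive and 5 to 9 against CD11b single-positive cells. The counts over all genes, which set the background, ranged from 26 to 2027 (main 1127), 53 to 186 (160), 56 to 217 (194) and 46 to 1199 (251) in that order, and the lowest values came without a B cell array, the highest without replicate 4 of the CD11b single-positive cells or, for CD27 single-positive cells, of the double-positive cells.

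Against double-low cells the count was 311 with quantile normalization, 342 with normexp, 553 with median centring, 337 with the deposited matrix, 5515 with every probe, 2512 with the slide as a block, 63 with the label as a block, 7444 with array weights and 718 without the 2 dimmest arrays. Against CD27 single-positive cells it was 799 with every probe, 55 on the second slide, 87 with the label block and 1920 with array weights. Against double-positive cells it was 974, 91 and 726 with every probe, the label block and array weights, and against CD11b single-positive cells 1305, 73 and 5218. The share of calls higher in B cells, 17.3% against double-low cells and 42.2% against CD11b single-positive cells, was 56.3% and 66.0% with quantile normalization, 47.1% and 67.0% with normexp, 34.0% and 50.8% with median centring and 56.4% and 66.8% with the deposited matrix. Between NK subsets 0 genes passed, but 3 with normexp, 12 with every probe and 131 with array weights, and 0 to 1 with an array left out; no member passed under any of these (0 to 0 with an array left out). With at least 10 arrays well above background, FCRL1 and LMO2 were not tested. The counts of B cell comparisons with the label as a block rest on B cell replicate 2 alone.

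Deviations of same-numbered NK arrays correlated at a median of 0.222 (-0.303 to 0.411; 17 of 25 pairs over 0.1), against -0.067 for different numbers (20 of 96 over 0.1), and NK replicates 1, 2 and 3 each share origin, sex and slide over the 4 subsets. Same-numbered B cell and NK arrays correlated at -0.035 to 0.016 and share no label by number, and not every NK pair was over 0.1. The main fits used no pairing. The F test between NK subsets therefore leaves the likeness of same-numbered NK arrays in its spread. The replicate block follows the numbers and not the labels. Number 4 joins females aged 18 years with males aged 5 years, and the B cell arrays are grouped with NK arrays of other labels. With this block 8, 8, 9 and 8 members passed, and 766, 194, 205 and 333 genes in all. The calls lost were SWAP70 against double-low (limma adjusted p = 0.0509) and CD11b single-positive cells (0.086). Signal over background limits LMO2 and FCRL1 in NK cells most.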
